A study of Homo sapiens with 8 samples.

Results

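The expression of cytokine genes of the IL1 and IL6 families, with CSF2, was followed across 8 Illumina HumanHT-12 v4 bead arrays: IL1A, IL1B, IL1RN, IL1R1, IL33, IL6, LIF, IL11, EBI3 and CSF2. Every probe carrying one of these symbols was taken, which gave 13 probes for 10 genes, out of 47322 probes and 31426 symbols on the array. The set was chosen from measured values, because IL1A and EBI3 were among the largest increases in SH-EP2 cells with the TRPM7 shRNA. Values of that comparison are therefore given for the 10 genes as a description: no gene's p-value is printed, and nothing is read from the number of probes past the threshold.

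The arrays profiled a pair of human neuroblastoma lines that both descend from SK-N-SH: SH-EP2, whose cells are epithelial-like, and SH-SY5Y, whose cells are neuroblastic. Each line had been stably transduced with a lentiviral shRNA against TRPM7, a cation channel that carries a kinase domain, or, for the controls, with a scrambled shRNA, and puromycin was used to select transduced cells. Each of the 4 groups has 2 arrays. Neither the labels nor the methods say whether these came from separate cultures, so that the p-values measure only the spread between the arrays of a group, which may be technical. All control and TRPM7 shRNA cells thus carried a vector and had passed drug selection, and the knockdown rests on a single shRNA, whose effects on other transcripts cannot be told apart from loss of TRPM7. In each line the whole transduced culture was profiled, so that fewer cells making a transcript and less transcript per cell cannot be told apart either.

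IL1A and IL1B are agonists that act through the receptor IL1R1, and IL1RN encodes the antagonist that occupies the same receptor without signalling. IL33 is a nuclear cytokine of the same family. Signalling through IL1R1 activates NF-kB and AP-1 and induces chemokines and further cytokines, among them IL6 and CSF2. IL6, LIF and IL11 share the signalling receptor chain gp130, which activates STAT3. EBI3 is a secreted receptor-like chain that is joined to IL27 in the cytokine IL-27 and to IL12A in IL-35. CSF2 encodes granulocyte-macrophage colony-stimulating factor. SH-EP2-like cells correspond to the mesenchymal state of neuroblastoma, and SH-SY5Y cells to its noradrenergic state.

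The deposited values are bead signals on a linear intensity scale with a detection p-value for each probe and array. A probe is called detected here where its detection p was under 0.05. The median signal of an array lay between 104.7 and 119.9, and each array detected 40.8% to 44.2% of all probes. In SH-SY5Y the medians were 111.5 and 104.7 in controls and 116.8 and 117 with the TRPM7 shRNA. The typical probe was thus brighter on these shRNA arrays before correction. The 10 noradrenergic markers had a median log2 level of 11.1 in both SH-SY5Y groups. In SH-EP2 control and TRPM7 shRNA cells it was 3.26 and 2.82. The 10 mesenchymal markers had median log2 levels of 10.1 and 9.23 in the SH-EP2 groups and of 4.46 and 4.30 in the SH-SY5Y groups. Not every marker followed its list: TH was undetected in all 4 groups. VIM had a mean signal of 10800 in SH-EP2 controls and 12800 in SH-SY5Y controls. The probe for TRPM7 stayed undetected on all 8 arrays (detection p 0.0753 to 0.201), so the arrays give no check of the knockdown itself.

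For comparisons, signals were background-corrected with the RMA model, quantile normalized and taken to log2, and differences were fitted with limma over all probes. The log2 differences are on this corrected scale, on which probes near the background are stretched. The ratio of the uncorrected signals is therefore given beside them. Where neither array of the dimmer group detected a probe, the fold is given as a lower bound against the lowest detected signals of those arrays. Such a bound holds on the RMA-corrected scale only, and other background corrections gave smaller differences.

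In SH-EP2 cells, 5 of the 10 genes had signals with the TRPM7 shRNA well above those of the control arrays: the agonists IL1A and IL1B, IL6, EBI3 and CSF2. The IL1A probe gave 124 and 122 on the SH-EP2 control arrays against 246 and 263 on the SH-EP2 TRPM7 shRNA arrays. In SH-SY5Y cells it gave 103 and 92.5 in controls and 108 and 111 with the TRPM7 shRNA. Both SH-EP2 TRPM7 shRNA arrays lay above the 6 others, and no SH-SY5Y array detected IL1A. The IL1A signal ratio in SH-EP2 was 2.07, and the log2 difference after background correction was 3.72 ± 0.426 (SE, n = 2 per group), a 13.2-fold difference. The control arrays were close to the limit, with detection p of 0.0429 and 0.0260, so that this fold depends on a dim reference.

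IL1B, the other agonist, was detected on all SH-EP2 arrays and on none of the SH-SY5Y arrays. Its signals were 137 and 142 in SH-EP2 controls and 178 and 195 in SH-EP2 TRPM7 shRNA cells, and 93.9 and 88.6 in SH-SY5Y controls and 109 and 110 in SH-SY5Y TRPM7 shRNA cells. The groups of each line did not overlap in signal, with the TRPM7 shRNA arrays higher in both lines. In SH-SY5Y every signal was undetected, the shRNA arrays had higher medians over all probes, and the difference did not pass (limma adjusted p = 0.614). The SH-EP2 signal ratio was 1.34 and the log2 difference 1.44 ± 0.436 (SE, n = 2 per group), or 2.71-fold.

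IL6, a main product of IL1 signalling, was detected on every SH-EP2 array. It gave 199 and 213 in SH-EP2 controls and 305 and 320 with the TRPM7 shRNA. The SH-SY5Y arrays gave 112 and 97.6 in controls and 112 and 114 with the shRNA, none of them detected. Its signals on the SH-EP2 TRPM7 shRNA arrays were thus above those of every other group. The SH-EP2 signal ratio was 1.51 and the log2 difference 1.04 ± 0.318 (SE, n = 2 per group), or 2.06-fold.

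EBI3 was detected on the SH-EP2 TRPM7 shRNA arrays and on no other array. Its signals were 115 and 106 in SH-EP2 controls and 184 and 181 with the TRPM7 shRNA, against 101 and 93.2 in SH-SY5Y controls and 103 and 109 in SH-SY5Y TRPM7 shRNA cells. The SH-EP2 groups did not overlap, and the SH-SY5Y signals were all within the undetected range. The signal ratio in SH-EP2 was 1.65 and the log2 difference 3.87 ± 0.471 (SE, n = 2 per group). Against the lowest detected signals of the control arrays, the level with the TRPM7 shRNA was at least 7.24-fold higher on the corrected scale.

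CSF2 gave 122 and 120 in SH-EP2 controls, of which 1 array was detected, and 190 and 196 in SH-EP2 TRPM7 shRNA cells. In SH-SY5Y cells its signals were 115 and 97.6 in controls and 106 and 97.5 with the shRNA, all undetected. Again both SH-EP2 TRPM7 shRNA arrays lay above all others. The SH-EP2 signal ratio was 1.59 and the log2 difference 3.09 ± 0.482 (SE, n = 2 per group), or 8.54-fold.

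**Figure D1:**
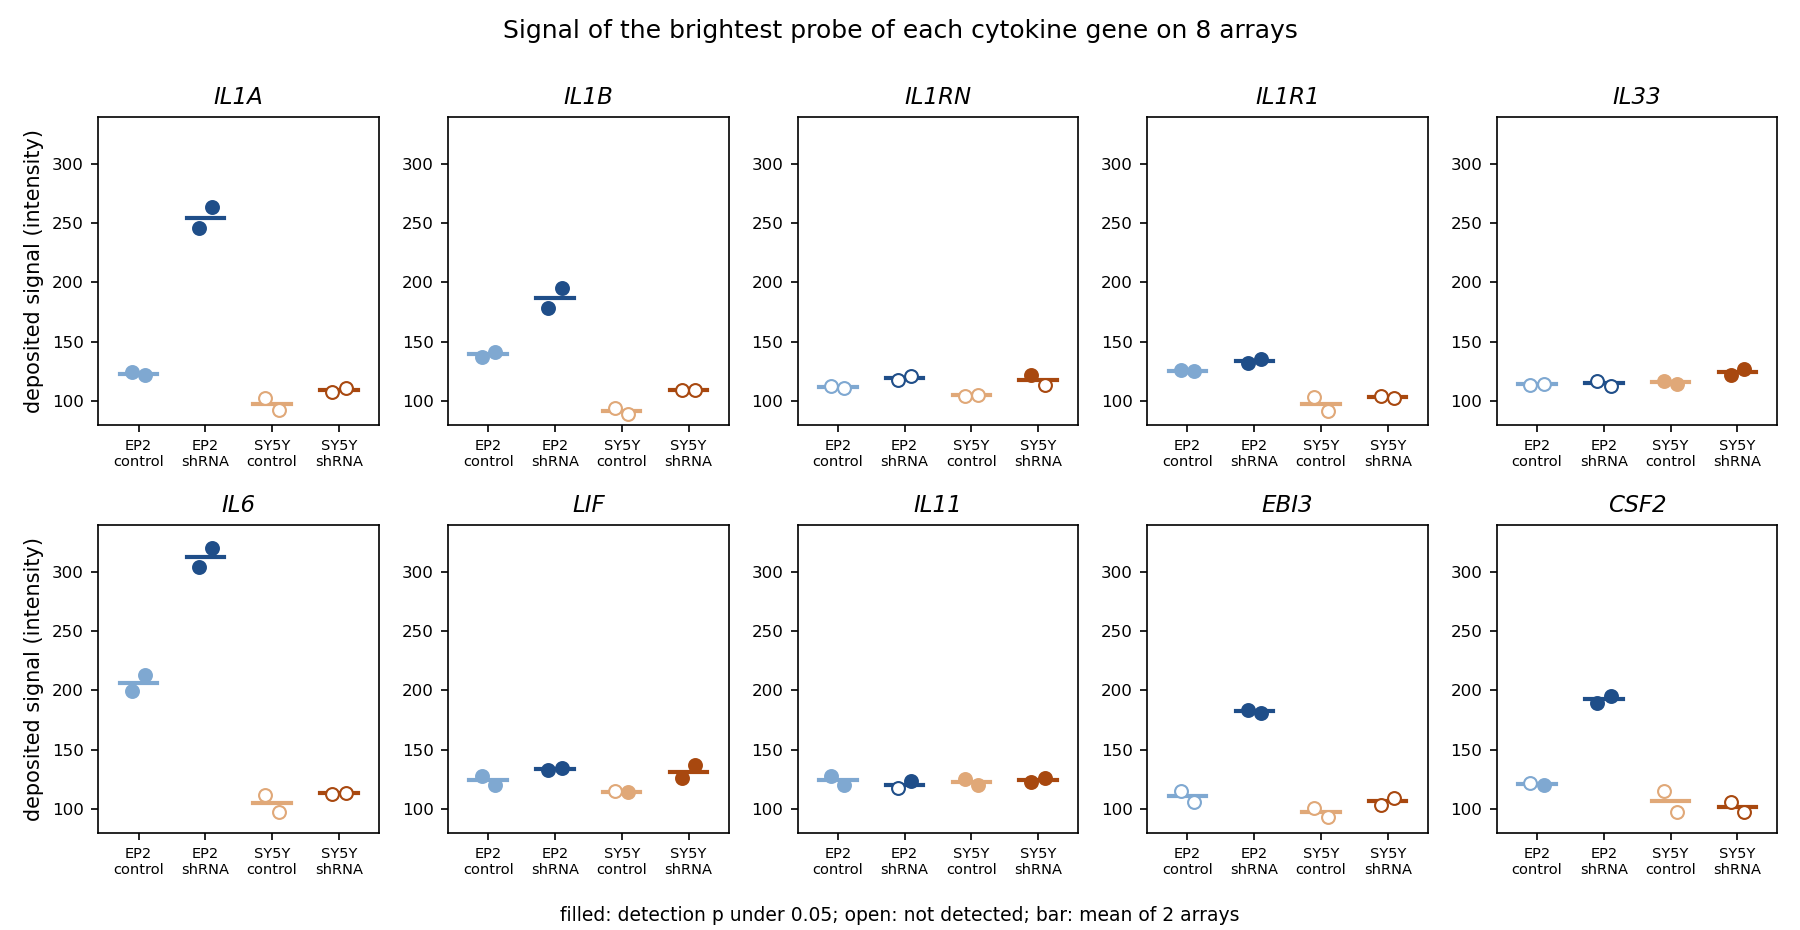
Deposited signal (linear intensity, vertical axis) of the brightest probe of each of the 10 genes in the 4 groups; each point is 1 array, filled where detected and open where not, and each bar is the mean of 2 arrays. The SH-EP2 TRPM7 shRNA arrays stand above the other groups for IL1A, IL1B, IL6, EBI3 and CSF2, with IL1A at 246 and 263 against 124 and 122 in SH-EP2 controls.

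The other members differed little in SH-EP2 cells. The receptor IL1R1 gave 126 and 125 in SH-EP2 controls and 132 and 136 with the TRPM7 shRNA, a log2 difference of 0.45 ± 0.472 (SE, n = 2 per group). LIF gave 128 and 120 in controls and 133 and 134 with the shRNA, with a log2 difference of 0.60 ± 0.442. IL11 was the one detected gene with a lower fitted level: it gave 128 and 121 in controls and 117 and 124 with the shRNA, and the log2 difference was -0.65 ± 0.460, with 1 of 2 shRNA arrays detected. The deposited signals of the groups did not overlap for IL1R1 and LIF and overlapped for IL11. The 3 probes of the antagonist IL1RN and both probes of IL33 were undetected on all SH-EP2 arrays, so that no fold is given for either gene.

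Of the 13 probes, 3 had an adjusted p under 0.05 in SH-EP2, all higher with the TRPM7 shRNA. Among all probes 3.02% passed. This comparison chose the genes, and nothing is read from the count. The median log2 difference over the 13 probes was 0.451, beside 0.00609 over all probes. The size of the differences followed the background correction: without any correction the log2 differences were 1.06 for IL1A, 0.73 for EBI3, 0.67 for CSF2, 0.57 for IL6 and 0.40 for IL1B, while their direction was the same in all 18 other settings tried.

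**Figure D2:**
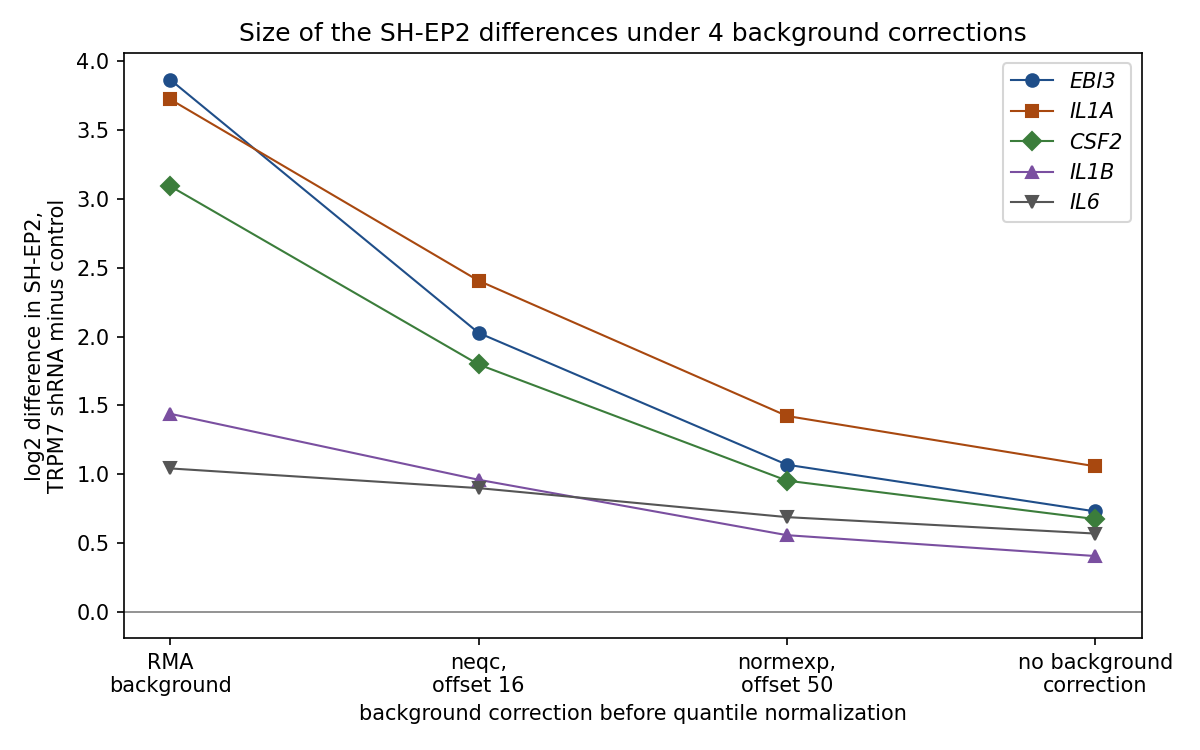
Log2 difference between TRPM7 shRNA and control in SH-EP2 (vertical axis) for 5 genes under 4 background corrections (horizontal axis); each point is the fitted difference of 2 against 2 arrays. All 5 genes stay above 0, and IL1A goes from 3.72 with the RMA background to 1.06 with no correction.

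The promoters of these 5 genes are shown because their transcripts were higher on the same arrays. Sequences are RefSeq windows of build GRCh38.p14 from 250 bases before to 50 bases after an annotated start, and 9 of the 10 genes had at least 1 window. LIF had no entry. They were searched on both strands for the NF-kB consensus, the AP-1 site TGANTCA, the STAT site TTCNNNGAA and the SNAI2 E-box CAGGTG. Capitals mark every match, which is a match of letters and not a shown binding site.

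IL1A promoter, chr2:112784444-112784743, minus strand: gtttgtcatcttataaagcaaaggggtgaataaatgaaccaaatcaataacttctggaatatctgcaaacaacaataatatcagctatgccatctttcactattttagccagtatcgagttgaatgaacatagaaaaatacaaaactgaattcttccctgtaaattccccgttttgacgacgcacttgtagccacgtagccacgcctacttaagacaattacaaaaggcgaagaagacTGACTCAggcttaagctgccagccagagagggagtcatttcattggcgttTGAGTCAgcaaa
IL1B promoter, chr2:112836730-112837029, minus strand: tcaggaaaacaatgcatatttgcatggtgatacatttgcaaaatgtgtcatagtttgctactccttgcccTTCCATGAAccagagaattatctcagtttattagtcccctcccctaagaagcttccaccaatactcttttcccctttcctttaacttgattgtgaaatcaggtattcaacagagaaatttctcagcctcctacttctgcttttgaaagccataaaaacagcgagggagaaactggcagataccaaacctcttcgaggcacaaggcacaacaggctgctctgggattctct
IL6 promoter, chr7:22726950-22727249, plus strand: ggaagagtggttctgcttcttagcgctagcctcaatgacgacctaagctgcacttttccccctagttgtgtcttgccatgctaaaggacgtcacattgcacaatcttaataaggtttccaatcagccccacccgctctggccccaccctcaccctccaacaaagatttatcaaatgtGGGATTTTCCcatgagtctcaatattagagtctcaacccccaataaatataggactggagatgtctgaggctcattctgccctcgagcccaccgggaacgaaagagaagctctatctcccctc
EBI3 promoter, chr19:4229273-4229572, plus strand: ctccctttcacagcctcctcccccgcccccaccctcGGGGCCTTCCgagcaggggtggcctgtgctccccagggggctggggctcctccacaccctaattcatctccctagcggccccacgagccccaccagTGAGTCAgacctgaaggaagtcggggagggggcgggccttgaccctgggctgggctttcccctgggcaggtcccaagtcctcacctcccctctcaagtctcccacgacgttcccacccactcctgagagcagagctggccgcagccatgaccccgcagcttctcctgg
CSF2 promoter, chr5:132073539-132073838, plus strand: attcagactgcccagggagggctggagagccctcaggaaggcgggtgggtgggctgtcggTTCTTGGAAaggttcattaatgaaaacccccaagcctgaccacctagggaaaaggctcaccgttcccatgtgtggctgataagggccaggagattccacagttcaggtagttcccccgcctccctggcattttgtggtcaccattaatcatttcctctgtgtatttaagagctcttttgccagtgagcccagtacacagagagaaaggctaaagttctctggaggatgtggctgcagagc

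With the start counted as base 0, the IL1A window held AP-1 letters at bases -12 to -6 and 38 to 44. A second annotated IL1A start lies close downstream, and its window holds the same matches at -105 to -99 and -55 to -49. The EBI3 window held an NF-kB match at -214 to -205 and an AP-1 match at -118 to -112, and the IL6 window an NF-kB match at -73 to -64. The IL1B and CSF2 windows each held a STAT match, at -180 to -172 and at -190 to -182, and neither NF-kB nor AP-1 letters. No match overlapped another motif, and no window of the 9 genes held the E-box. Among all 35116 promoter windows of this length, 11.3% held the NF-kB consensus, 7.71% the AP-1 site, 7.66% the STAT site and 20.6% the E-box.

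Genes whose SH-EP2 signals differed less also held such letters. The windows of IL1RN and IL11 held an AP-1 match, at -223 to -217 and at -96 to -90, and 1 window each of IL1R1 and IL33 a STAT match. IL1A and IL1B are adjacent coding genes on chromosome 2, followed by IL37, and IL1RN lies as the last of 9 coding genes of the same stretch. IL1R1 lies elsewhere on chromosome 2 between IL1R2 and IL1RL2. EBI3 and IL11 are on chromosome 19, CSF2 is on chromosome 5 next to IL3, LIF is next to OSM on chromosome 22, IL6 is on chromosome 7 and IL33 on chromosome 9.

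In SH-SY5Y cells the design gives a test of the same knockdown on arrays that the choice of genes did not use. None of the 13 probes passed limma's test there: 0 had an adjusted p under 0.05 and 0 an unadjusted p under 0.05. Among all probes, 2.11% had an adjusted p under 0.05. A test per probe with equal variances called 0 member probes in every comparison made, so it cannot decide here. The median log2 difference of the 13 probes was 0.00556, beside 0.00482 over all probes. Only 4 of the 13 probes were detected on any SH-SY5Y array, those of LIF, IL11, IL33 and, on 1 array, IL1RN, so that for the other genes a difference was not detectable above the background.

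LIF, a cytokine that acts through gp130, gave 115 and 114 in SH-SY5Y controls and 126 and 137 with the TRPM7 shRNA. Both shRNA arrays were brighter, as were their medians over all probes, and 1 of 2 control arrays was detected. The log2 difference was 0.45 ± 0.442 (SE, n = 2 per group; 95% interval -0.47 to 1.38; limma adjusted p = 0.798). IL11, another gp130 cytokine, gave 125 and 120 in controls and 123 and 126 with the shRNA, overlapping in signal. Its log2 difference was -0.80 ± 0.460 (95% interval -1.76 to 0.17; limma adjusted p = 0.569).

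IL33 was detected on the 4 SH-SY5Y arrays and on no SH-EP2 array by the brighter of its 2 probes, with 117 and 114 in SH-SY5Y controls and 122 and 127 with the shRNA. The deposited signals were higher with the shRNA (ratio 1.08), as were the medians of these arrays over all probes. After background correction and quantile normalization the log2 difference was -0.17 ± 0.479 (95% interval -1.18 to 0.83, limma adjusted p = 0.947), so that its direction depends on the scaling. The other IL33 probe was undetected everywhere. IL1RN was detected on SH-SY5Y TRPM7 shRNA replicate 1 only, at a detection p of 0.0429, with 122 there, 113 on the second shRNA array, and 105 on both controls. The intervals of LIF, IL11 and IL33 thus include 0 and reach past 1 log2 unit in 1 direction each, upward for LIF and downward for IL11 and IL33.

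**Figure D3:**
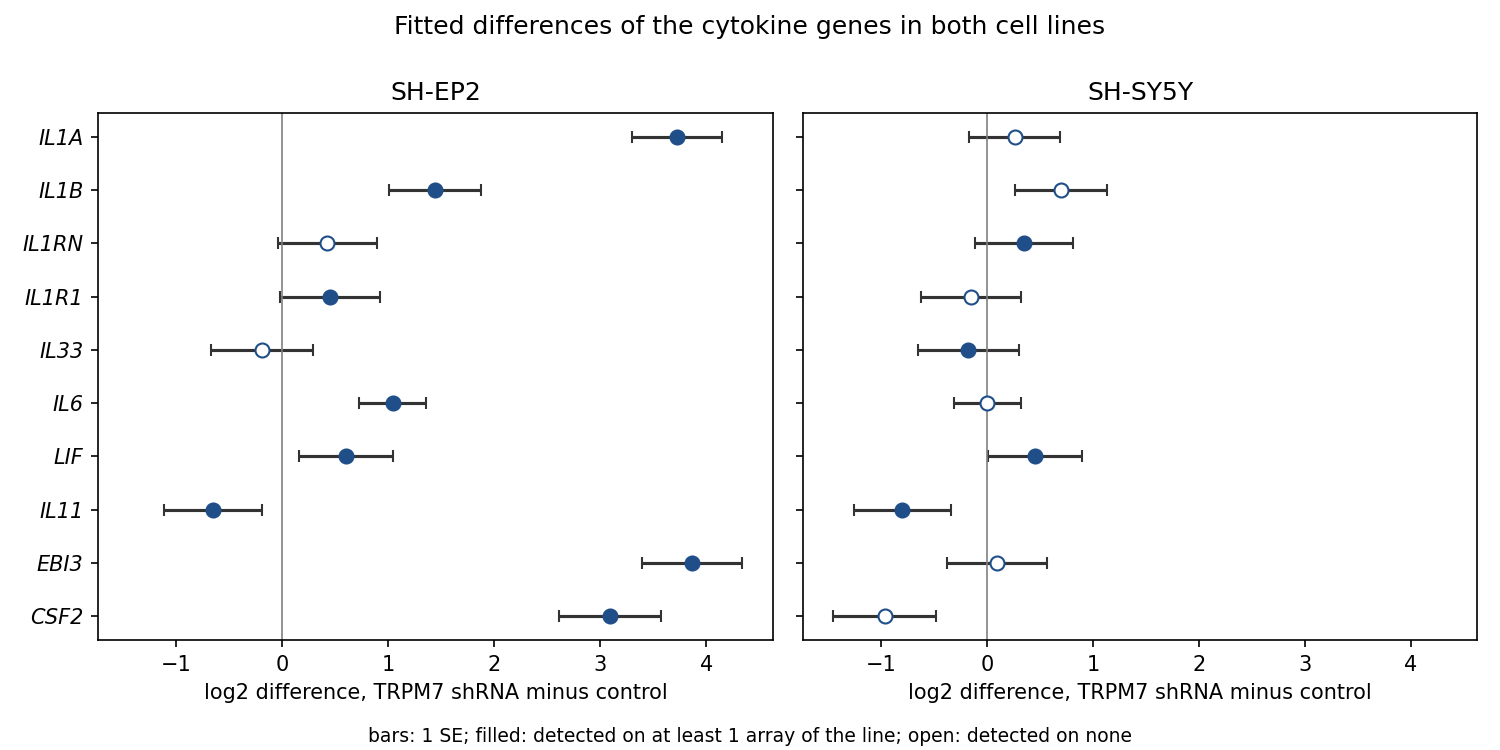
Log2 difference between TRPM7 shRNA and control (horizontal axis) of the brightest probe of each gene in SH-EP2 (left) and SH-SY5Y (right), with bars of 1 SE from the fit over 2 arrays per group; open points were detected on no array of the line. In SH-EP2, EBI3, IL1A and CSF2 lie at 3.87, 3.72 and 3.09, and in SH-SY5Y the detected genes lie between -0.80 and 0.45.

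Control cells of both lines were also compared. These SH-EP2 control arrays served in the comparison that chose the genes, so that the 2 comparisons share them, and no p is given for IL1A and EBI3. IL6 was at least 10.8-fold higher in SH-EP2 than in SH-SY5Y control cells (log2 difference 4.22 ± 0.318, SE, n = 2 per group; limma adjusted p = 1.44e-09). IL1B was at least 2.98-fold higher (3.37 ± 0.436; limma adjusted p = 3.14e-06), and its receptor gene IL1R1 at least 1.42-fold higher (1.90 ± 0.472; limma adjusted p = 0.00375). IL6, IL1B and IL1R1 were detected on both SH-EP2 control arrays and on neither SH-SY5Y control array, without overlap of the groups. Without background correction their log2 differences were 0.92, 0.53 and 0.28, and all 3 still passed.

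IL1A was detected on both SH-EP2 control arrays as well and was at least 1.20-fold higher there. The gp130 cytokines LIF (log2 difference 0.11 ± 0.442, limma adjusted p = 0.910) and IL11 (-0.59 ± 0.460, limma adjusted p = 0.440) were detected in both lines and did not pass. IL33 was detected in SH-SY5Y controls only, and its difference too did not pass (log2 difference -0.97 ± 0.479, limma adjusted p = 0.171). Its deposited signals overlapped between the lines (ratio 0.986), and its other probe was undetected. CSF2 did not pass either (log2 difference 0.68 ± 0.482, limma adjusted p = 0.388), and EBI3 was undetected in both controls. Leaving out IL1A and EBI3, 3 of the 11 probes of the other 8 genes had an adjusted p under 0.05 between the lines, all higher in SH-EP2, where 26.2% of all probes passed.

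The wider pathways were described with 79 other genes in 4 lists: 23 genes of the IL1 family and its receptors, 25 of the IL6 and IL12 families with their receptors, 11 colony-stimulating factors and receptors, and 20 genes that IL1 induces in many cell types. Each gene was read by its brightest probe, and the lists were written with earlier results of these arrays known. In SH-EP2, 15 of the 79 genes rose and 1 fell, where 1.82% of all genes rose and 1.85% fell. In SH-SY5Y, 0 rose and 4 fell, where 0.999% of all genes rose and 1.57% fell. Of the 79 genes, 54 were detected on at least 1 SH-EP2 array and 44 on at least 1 SH-SY5Y array.

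Most of the SH-EP2 calls were in the list of genes that IL1 induces. Of its 20 genes, 12 rose and 0 fell, and the median log2 difference was 1.00 beside 0.0103 over all genes. As the list was written with earlier results of these arrays known, these values are a description. Whether IL1 acted on these genes was not tested. The neutrophil chemokine gene CXCL1 rose from a mean signal of 137 ± 13.4 to 725 ± 20.6 (SD, n = 2), 26.5-fold after background correction (log2 difference 4.73, limma adjusted p = 8.19e-08). The monocyte chemokine gene CCL7 went from an undetected 111 ± 7.45 to 262 ± 11.3 and was at least 15.8-fold higher (limma adjusted p = 2.03e-06). CXCL2, which encodes a chemokine close to CXCL1, went from an undetected 115 ± 10.8 to 183 ± 1.5 and was at least 7.33-fold higher (limma adjusted p = 0.000164). Without background correction the log2 differences were 2.40 for CXCL1, 1.25 for CCL7 and 0.68 for CXCL2, and all 3 passed. The 3 chemokine genes were undetected in SH-SY5Y but for CXCL1 on 1 TRPM7 shRNA array.

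In SH-SY5Y, 3 genes of the same list fell and 0 rose, with a median log2 difference of -0.0145. CCL2, the gene of a monocyte chemokine, fell from 280 ± 5.87 to 151 ± 0.145 (SD, n = 2), a log2 difference of -2.61 (limma adjusted p = 3.79e-10). TNFAIP6, which encodes a secreted hyaluronan-binding protein, had a log2 difference of -1.21 by its brighter probe (limma adjusted p = 0.00175), and NFKBIA, the inhibitor of NF-kB, one of -0.39 (limma adjusted p = 0.0210). Without background correction the log2 differences of CCL2 and TNFAIP6 were -1.06 and -0.58, and both passed. With the mean over both its probes, TNFAIP6 had -0.69 and did not pass (adjusted p = 0.485), its other probe being undetected in SH-SY5Y. The NFKBIA call was lost with median scaling (log2 difference -0.26, adjusted p = 0.386), with the line fitted alone (adjusted p = 0.107), and without control replicate 1 (adjusted p = 0.161) or TRPM7 shRNA replicate 1 (adjusted p = 0.183). In SH-EP2 these 3 genes rose, with log2 differences of 1.06, 1.16 and 0.76.

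Calls among family members and receptors are given beside the shares of all genes, 1.82% rising and 1.85% falling in SH-EP2. In SH-SY5Y these shares were 0.999% and 1.57%. IRAK2, a kinase-like adaptor below the IL1 receptor, was the 1 of 23 genes of the IL1 list that rose in SH-EP2, from 344 ± 29.8 to 914 ± 2.92 (SD, n = 2; log2 difference 1.75, limma adjusted p = 0.00654), and 0 of the 23 passed in SH-SY5Y by limma, with 4 at an unadjusted p under 0.05. Of the 25 genes of the IL6 and IL12 list, IL12A and the receptor gene IL27RA rose in SH-EP2 and IL11RA fell. IL27RA, the receptor of the EBI3-containing cytokine IL-27, went from 590 ± 11.6 to 851 ± 15.5 (log2 difference 0.61, limma adjusted p = 0.0352). IL11RA, the receptor of IL11, had a log2 difference of -0.44 by its brightest probe (limma adjusted p = 0.0112). Its other detected probe was lower too, at -0.69, and did not pass (limma adjusted p = 0.112). The remaining IL11RA probe was undetected in SH-EP2. Without any 1 of the 4 SH-EP2 arrays, none of IRAK2, IL12A, IL27RA and IL11RA passed in SH-EP2 (limma adjusted p 0.0624 to 0.251).

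IL12A, which pairs with EBI3 in IL-35, moved in opposite directions in the lines. It rose from 127 ± 4.46 to 157 ± 7.30 in SH-EP2 (SD, n = 2; log2 difference 1.59, limma adjusted p = 0.0129) and fell from 135 ± 3.47 to 124 ± 4.67 in SH-SY5Y (log2 difference -1.61, limma adjusted p = 0.0149). The SH-SY5Y call was lost with other background corrections, neqc (adjusted p = 0.0560) and normexp with an offset (0.0539), and with none (0.0576), and without control replicate 2 (0.188) or TRPM7 shRNA replicate 1 (0.148). Of the 11 genes of colony-stimulating factors and their receptors, 0 passed in either line by limma, with 1 in each line at an unadjusted p under 0.05. Beside the shares of all genes given above, nothing is read from this count. Without an intensity trend in the variance the pathway calls were 6 in SH-EP2 and 1 in SH-SY5Y, and with equal variances probe by probe 0 in both, so that these calls rest on the variance shared across probes. The SH-EP2 count was 12 without control replicate 1 and 10 without control replicate 2 or either TRPM7 shRNA array.

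**Figure D4:**
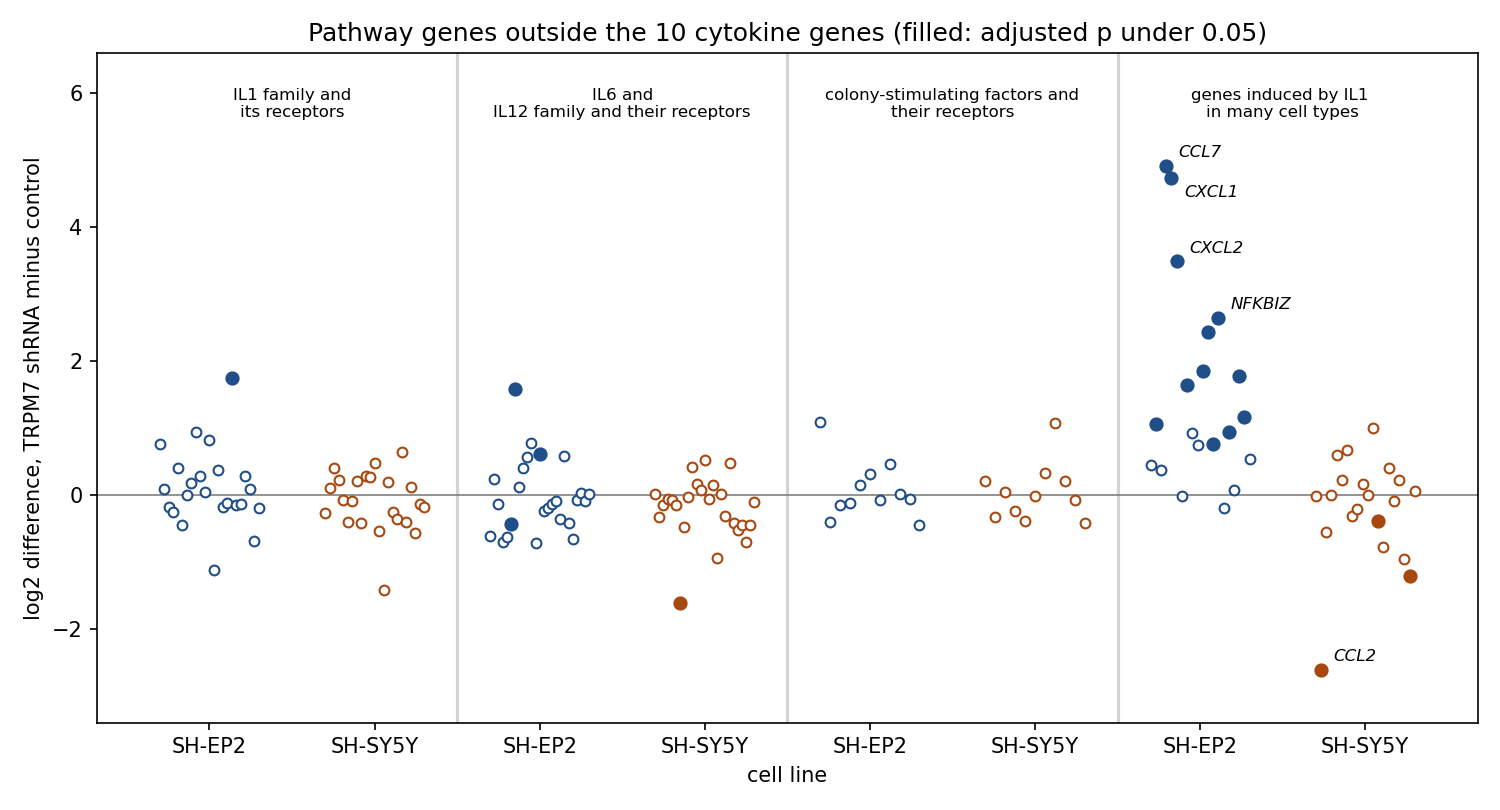
Log2 difference between TRPM7 shRNA and control (vertical axis) of the 79 pathway genes in 4 lists, with SH-EP2 and SH-SY5Y side by side; each point is 1 gene, filled where limma's adjusted p was under 0.05. In the list of genes that IL1 induces, 12 of 20 rose in SH-EP2, and 3 fell in SH-SY5Y with CCL2 lowest at -2.61.

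Leukocytes are a common source of these cytokines, and their markers were read on the same arrays. Of 12 leukocyte genes, 5 were detected on both SH-EP2 control arrays and 3 on both SH-EP2 TRPM7 shRNA arrays, and their summed signal was 1761 to 1893 in controls and 1643 to 1659 with the shRNA. In SH-SY5Y, 3 were detected on both control arrays and 2 on both shRNA arrays. The summed signal there was 1366 to 1534 in controls and 1651 to 1674 with the shRNA. These sums are of uncorrected signals, and the SH-SY5Y shRNA arrays had higher medians over all probes. The monocyte gene CD14 had a mean signal of 361 in SH-EP2 controls and 177 with the shRNA, and PTPRC, which encodes the pan-leukocyte antigen CD45, 123 and 126. Without CD14 the other 11 genes summed to 1429 to 1503 in SH-EP2 controls and 1472 to 1475 with the shRNA, so that the lower sum was that of CD14. The part of leukocyte RNA in the results was not tested.

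Across the 8 arrays and 17256 other detected genes, the levels most like that of IL1A by Pearson correlation of log2 levels were those of MTSS1 (r = 0.995), KRT13 (0.994), LTB (0.991), CD83 (0.991) and DIRAS3 (0.990). The levels most like that of EBI3 were those of RHBDF2 (r = 0.997), CCL7 (0.995), CXCL2 (0.991), TM7SF3 (0.987) and SERPINA5 (0.986). LTB encodes a cytokine of the TNF family and CD83 a surface protein of activated immune cells. The 8 points share their arrays and their normalization and fall in 4 groups of 2, with the SH-EP2 TRPM7 shRNA arrays far above the rest for IL1A and EBI3. The margin over SH-EP2 controls varied among the listed genes, from mean log2 levels of 9.49 against 9.11 for TM7SF3 to 7.21 against 2.29 for CCL7, so that these values describe likeness of pattern only.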

How the data were processed

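The groups were taken from the cell line and shRNA in the labels. The authors extracted bead signals in GenomeStudio (v2011.1), and the deposited table holds non-normalized intensity values and a detection p-value for 47322 probes on 8 arrays, of which 44052 carry a gene symbol. The depth of an array platform is its signal over background, and 2 arrays per group limit the precision. Here the RMA background model was applied to the intensities, followed by quantile normalization over the 8 arrays and log2. No probe was filtered. Differences were fitted with limma 3.58.1 in R 4.3.3 (4 groups, eBayes with an intensity trend, two-sided), and p-values were adjusted by Benjamini-Hochberg across the whole table. The methods of the study name RMA normalization and no test. Each gene was read by the probe with the highest mean, and all probes of the 10 genes are given. Pathway genes were named where the adjusted p was under 0.05, both arrays of the brighter group were detected and the groups did not overlap, at most 3 per list, line and direction by size. The 10 genes and the lists were chosen with earlier results of these data known. Alternatives covered background correction, scaling, a detection filter, the variance model, each line alone, a replicate block, probe averaging and leaving out each array. Promoters came from RefSeq (GRCh38.p14), and 9 of 10 genes matched.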

Additional observations from a re-analysis of the deposited data

Results flagged for a closer look

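In 4 pathway genes the TRPM7 shRNA arrays moved up in SH-EP2 and down in SH-SY5Y. The difference between the lines was fitted as an interaction in limma. The 4 genes were picked for these opposite moves on the same arrays, so no p-value is given for the interaction. The log2 differences in SH-EP2 and SH-SY5Y were 1.06 and -2.61 for CCL2 (difference between lines 3.67 ± 0.174, SE) and 1.16 and -1.21 for TNFAIP6 (2.37 ± 0.292). They were 0.76 and -0.39 for NFKBIA (1.16 ± 0.127) and 1.59 and -1.61 for IL12A (3.20 ± 0.494). A lack of overlap of the groups on the normalized scale in both lines was part of the rule that picked the 4 genes. It therefore adds no evidence for the opposite moves. The deposited signals of NFKBIA in SH-SY5Y did overlap, and its SH-SY5Y call was lost with median scaling (adjusted p = 0.386) and with the line fitted alone (0.107). The SH-SY5Y call of TNFAIP6 was lost with the mean over its probes (-0.69, adjusted p = 0.485). That of IL12A was lost with neqc (limma adjusted p = 0.056), normexp with an offset (0.0539) and no background correction (0.0576).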

How the results depend on the processing

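No member probe was called in SH-SY5Y under any of the alternatives run. The SH-EP2 count ranged from 0, with equal variances probe by probe, to 5. That comparison chose the genes, the share of all probes was not computed for these settings, and nothing is read from the count. Between the lines, IL6, IL1B and IL1R1 did not pass with equal variances probe by probe (adjusted p 0.0866 to 0.155). Their direction was the same in all 16 alternatives. For the pathway genes, the count was 16 in SH-EP2 and 4 in SH-SY5Y, and these were 6 and 1 without the intensity trend, 0 and 0 with equal variances probe by probe, and 10 to 17 and 3 to 5 without 1 array. The calls of IRAK2, IL12A, IL27RA and IL11RA in SH-EP2 were lost on leaving out any 1 of the 4 SH-EP2 arrays. In SH-SY5Y the IL12A call was lost without control replicate 2 (adjusted p = 0.188) or TRPM7 shRNA replicate 1 (0.148), and that of NFKBIA with median scaling (-0.26, adjusted p = 0.386), with the line alone (0.107) and without control replicate 1 (0.161) or TRPM7 shRNA replicate 1 (0.183). The TNFAIP6 call in SH-SY5Y was lost with the mean over its probes (-0.69, adjusted p = 0.485), where IL27RA (0.61, 0.0827) and IL11RA (-0.30, 0.551) in SH-EP2 were lost too, and IL27RA also with median scaling (0.59, 0.136). The cause was not tested.

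The fitted direction of IL33 in SH-SY5Y (-0.17) turned to 0.067 with the mean over its probes, and ranged from -0.48 to 0.14 without 1 array. That of LIF between the lines (0.11) ranged from -0.27 to 0.50. With detection p under 0.01 the genes detected on both arrays went from 6 to 2 in SH-EP2 controls, from 2 to 1 in SH-SY5Y controls and from 3 to 0 in SH-SY5Y TRPM7 shRNA cells, and stayed 7 in SH-EP2 TRPM7 shRNA cells. Replicate numbers did not pair the arrays (correlation of replicate differences -0.00447 in SH-EP2 and -0.111 in SH-SY5Y). With a replicate block the calls were 3 and 0 member probes and 16 and 3 pathway genes in SH-EP2 and SH-SY5Y, NFKBIA in SH-SY5Y being the one lost (adjusted p = 0.0536). The signals of most of the 10 genes lie close to the background, which limits every fold given.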
